A study of Mus musculus with 27 samples.

Results

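The genes described here are the 30 of the branched-chain amino acid degradation module, the enzymes that break down leucine, isoleucine and valine together with their regulators, measured by RNA-Seq in mouse liver. They were picked by gene symbol from the 23191 symbols of the count table by a rule that reads no measured value, although the module itself was chosen with earlier results of these data known, and all 30 were found (*Mut*, methylmalonyl-CoA mutase, is listed as *Mmut*). Of these, 8 act up to and including the branched-chain ketoacid dehydrogenase complex, 21 act after it or are drawn beside it in the pathway, and the transcription factor *Klf15* stands apart. The livers came from male C57BL/6J mice that were 8 weeks old when feeding began and were studied after 4 weeks on chow or on a diet high in fat and sucrose (HF/HS). The chow arm held 7 control littermates and 6 HGFAC-KO mice, and the HF/HS arm held 7 mice of each genotype. HGFAC is a liver protease that activates hepatocyte growth factor, and the HGFAC-KO mice carry a whole-body CRISPR/Cas9 lesion that reaches from within exon 1 through exon 2 of *Hgfac*, so differences in liver need not start in liver cells. *Hgfac* itself ran from 65.6 to 84.7 counts scaled to library size (CPM) in HGFAC-KO mice and from 183 to 220.0 CPM in controls on chow, and from 81.6 to 101 and 247 to 293 CPM on HF/HS. Counts over the whole gene include reads outside the lesion, so this is only a partial check of the labels.

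Libraries held 36056177 to 57298657 counts, and levels are given as CPM after TMM scaling. Markers of hepatocytes were abundant in every mouse. The summed CPM of 5 adipocyte markers reached 2.36, in a control on chow, and of these only the leptin gene *Lep* was at 0 in all mice. The summed CPM of 4 skeletal muscle markers never passed 0.459, although muscle is a main site of branched-chain amino acid transamination. The summed level of the 8 hepatocyte markers, led by *Alb*, ran from 81006 to 95932 CPM in chow-fed controls and 91447 to 106060 CPM in chow-fed HGFAC-KO mice, and from 80865 to 99024 CPM and 90911 to 118530 CPM on HF/HS, and its part in the genotype values below was not tested. Most of this sum is *Alb*, and the markers did not move as 1 group, since 4 of 8 were higher and 4 lower in HGFAC-KO mice on each diet, with median log2 fold changes of -0.01 on chow and -0.03 on HF/HS and 0 called (edgeR). In bulk liver, fewer cells of a type and less RNA per cell cannot be told apart. Some knockouts stood apart in this pathway, as seen after the values were known. HGFAC-KO replicate 5 on HF/HS had the highest level of its group in 15 of the 21 genes after the complex, and on chow HGFAC-KO replicate 1 had the lowest in 13 of 21 and replicate 2 the highest in 13 of 21.

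Branched-chain amino acids are first stripped of their amino group by the aminotransferases *Bcat1* (cytosolic) and *Bcat2* (mitochondrial), and the resulting ketoacids are then decarboxylated by the branched-chain ketoacid dehydrogenase complex, the committed step. Liver is known for low transaminase and high dehydrogenase activity, so that it mainly oxidizes ketoacids made in muscle. The complex consists of a decarboxylase (*Bckdha*, *Bckdhb*), a transacylase (*Dbt*) and a dihydrolipoamide dehydrogenase (*Dld*), and it is switched off by the kinase *Bckdk* and on by the phosphatase *Ppm1k*. After the complex, leucine is carried to acetoacetate and acetyl-CoA, isoleucine to acetyl-CoA and propionyl-CoA, and valine to propionyl-CoA, which enters the citric acid cycle as succinyl-CoA.

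RefSeq promoter windows (GRCm38.p6) were at hand for 24 of the 30 genes, in 29 windows, and the 250 bases upstream of the start site were searched on both strands for CACGTG (E-box), the direct repeat DR1 (copies of AGGTCA with 1 base between them, which nuclear receptors such as PPARA can bind), CCAAT and GGGCGGG (GC box). The E-box was in 2 of the 29 windows, those of *Klf15* and *Mccc2*, against 6.02% of all 32851 windows. The CCAAT motif was in 18 of 29 windows against 33.8% of all, the GC box in 12 of 29 against 23.4%, and the direct repeat in 0 of 29 against 0.0335%. A match is a run of letters and not a binding site, and windows of 1 gene can overlap. The windows of 2 genes on which results below turn are printed, *Mccc2*, whose lower level on HF/HS in HGFAC-KO mice passed the test in some fits and not in others, and *Hsd17b10*, which had the most negative fitted genotype value after the complex on HF/HS, with every match to a searched motif in capitals. The *Mccc2* window is chr13:100015640-100015889 on the minus strand and the *Hsd17b10* window is chrX:152001646-152001895 on the plus strand, both written 5′ to 3′ and placed by the RefSeq start site, which can differ from that of GENCODE.
Mccc2: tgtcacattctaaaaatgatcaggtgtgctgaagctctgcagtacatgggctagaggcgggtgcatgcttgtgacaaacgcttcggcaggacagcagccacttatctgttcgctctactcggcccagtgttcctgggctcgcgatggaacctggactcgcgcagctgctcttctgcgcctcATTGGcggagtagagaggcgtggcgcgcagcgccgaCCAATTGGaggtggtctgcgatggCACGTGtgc
Hsd17b10: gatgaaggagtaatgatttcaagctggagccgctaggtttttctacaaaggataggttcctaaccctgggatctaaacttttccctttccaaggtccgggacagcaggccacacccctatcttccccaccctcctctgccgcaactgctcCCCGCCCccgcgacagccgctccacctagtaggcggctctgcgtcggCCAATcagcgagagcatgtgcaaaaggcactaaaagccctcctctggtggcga
The *Mccc2* window holds 1 E-box near its start site and 3 CCAAT matches, 2 of which overlap on opposite strands, and the *Hsd17b10* window holds 1 CCAAT and 1 GC box match.

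To see which steps of the pathway liver expresses most, levels were divided by the length of each gene's exons in the GENCODE M21 annotation of GRCm38, and only these per-length values are compared between genes. In controls on chow, *Aldh2*, the mitochondrial aldehyde dehydrogenase best known for acetaldehyde, was highest at 398 ± 23.2 CPM per kilobase (SD, n = 7). Next came *Hsd17b10*, the dehydrogenase of the isoleucine branch, at 120.4 ± 12.1, *Bckdha* at 111 ± 5.55 and *Acat1*, the thiolase that ends the isoleucine branch, at 105 ± 3.55 CPM per kilobase. Neighbours in this order, with *Aldh2* left aside, lay within 2 SD of each other. *Bckdha* was thus measured at several times the level of its partners *Bckdhb* (25.3 ± 1.29), *Dbt* (23.0 ± 2.41) and *Dld* (33.5 ± 1.81 CPM per kilobase). At the other end, *Bcat1* had 0 counts in all 27 mice, and *Oxct1*, which activates ketone bodies outside the liver, was at 0.835 ± 0.147 CPM per kilobase. *Bcat2* was at 11.9 ± 1.06, the phosphatase *Ppm1k* at 7.47 ± 1.99 and the kinase *Bckdk* at 4.04 ± 0.611 CPM per kilobase. With the longest transcript as the length, *Aldh2* and *Hsd17b10* stayed at the top and *Aldh7a1* followed at 121 CPM per kilobase.

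**Figure D1:**
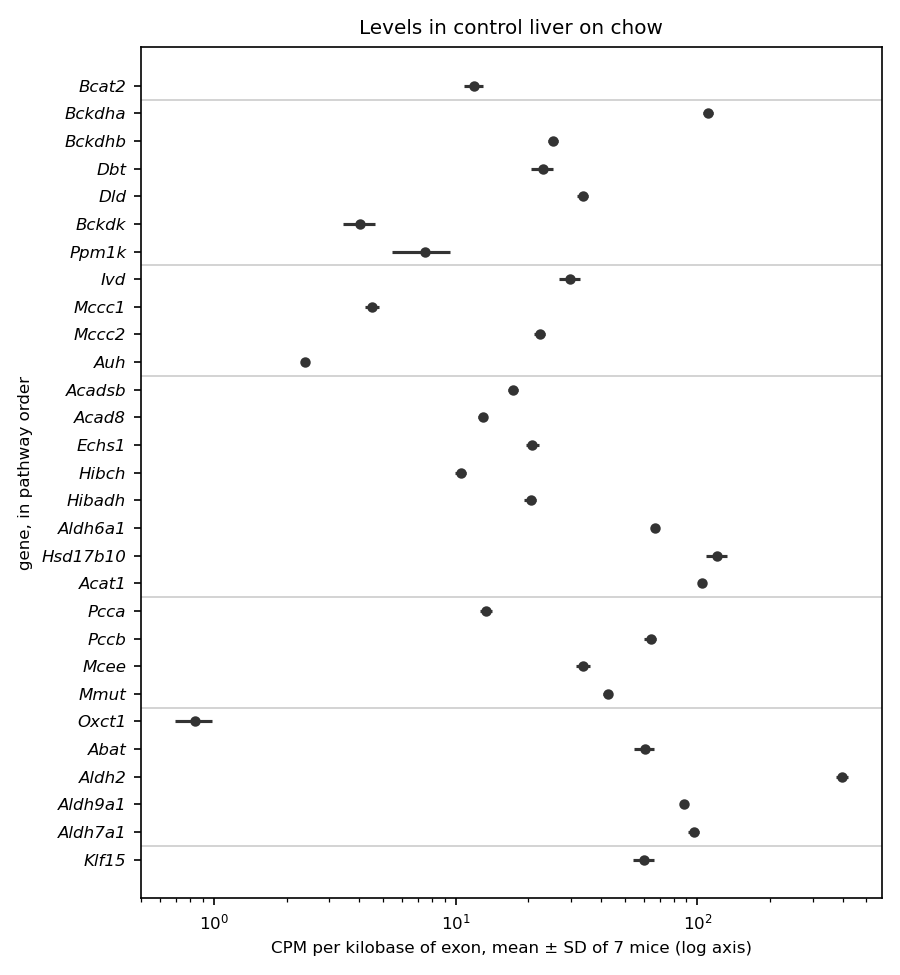
Levels of 29 members in control liver on chow, in CPM per kilobase of exon on a log axis (points are means of 7 mice, bars are SD), in pathway order from transamination at the top to *Klf15* at the bottom, with lines between groups of steps. *Aldh2* lies highest at 398 and *Oxct1* lowest at 0.835 CPM per kilobase, and *Bcat1*, at 0 counts, is not drawn.

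Within each branch the partners of shared enzymes differed in level. Of the 2 subunits of the leucine-branch carboxylase, *Mccc2* was at 22.3 ± 1.13 and *Mccc1* at 4.52 ± 0.285 CPM per kilobase, and of those of propionyl-CoA carboxylase, *Pccb* was at 64.0 ± 3.58 and *Pcca* at 13.4 ± 0.736. The length used moves such gaps, since with the longest transcript *Pccb* was at 76.4 and *Pcca* at 26.9, *Mccc2* at 29.5 and *Mccc1* at 7.33, *Echs1* at 42.1 and *Auh* at 7.09 CPM per kilobase. Values also over 1.5 times higher by that length were those of *Bcat2* at 22.2, *Ivd* at 44.7, *Hibch* at 16.9, *Hibadh* at 34.2, *Aldh6a1* at 111 and *Abat* at 101 CPM per kilobase. The remaining leucine enzymes were *Ivd*, isovaleryl-CoA dehydrogenase, at 29.8 ± 2.98, and *Auh*, a hydratase, at 2.39 ± 0.0918 CPM per kilobase. In the isoleucine and valine branches, the acyl-CoA dehydrogenases *Acadsb* and *Acad8* were at 17.4 ± 0.818 and 12.9 ± 0.488, the hydratase *Echs1* at 20.8 ± 1.25, the hydrolase *Hibch* at 10.5 ± 0.561, the dehydrogenase *Hibadh* at 20.4 ± 1.14 and *Aldh6a1*, methylmalonate semialdehyde dehydrogenase, at 66.9 ± 1.94 CPM per kilobase. The epimerase *Mcee* and the mutase *Mmut*, which finish the propionate route, were at 33.8 ± 2.23 and 42.5 ± 1.78, and *Abat*, the GABA aminotransferase, *Aldh9a1* and *Aldh7a1*, 2 further aldehyde dehydrogenases, and *Klf15* were at 60.7 ± 5.76, 88.4 ± 3.16, 96.6 ± 5.01 and 60.2 ± 6.23 CPM per kilobase. Exons of another gene overlap those of *Bcat1*, *Bcat2*, *Bckdha*, *Mccc1*, *Echs1*, *Aldh6a1*, *Pcca*, *Mmut*, *Oxct1*, *Aldh2* and *Aldh7a1* on the other strand and of *Hibadh* on the same strand, and the strand setting of the counting is not given in the sources used here, so reads of such pairs may be shared or left uncounted, which also bears on the 0 counts of *Bcat1*.

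On HF/HS, nearly all genes after the complex had slightly lower fitted levels in HGFAC-KO mice than in controls, but no member passed the test. At an adjusted p under 0.05 (the quasi-likelihood test of edgeR, adjusted by Benjamini-Hochberg over 13544 genes), 0 of 29 tested members were called, where 0.0148% of all genes were. At an unadjusted p under 0.05 the members numbered 11, 10 lower and 1 higher, of 29, where 9.64% of all genes did so, and with DESeq2, which called 55 of the 13544 genes, 1 member, *Abat*, was called. After the complex 20 of 21 members had a negative fitted value, with a median log2 fold change of -0.14, against 50.5% of all genes and a median of 0.00 over all genes. Up to and including the complex 4 of 7 were negative, with a median of -0.04. Of the markers of other cell types, 6 of 7 of endothelial cells were lower too, with a median of -0.16, and their summed level ran from 231 to 340.0 CPM in controls and 218 to 287 CPM in the knockouts. Those of Kupffer cells (3 of 7 lower), other leukocytes (3 of 7), stellate cells (5 of 7) and cholangiocytes (3 of 6) had medians between -0.03 and 0.06, 0 markers of these lists were called (edgeR), and the part of these cells in the members' values was not tested. The members were not tested as a set, and leaving out single mice in turn gave 0 or 1 call. Fitted values given from here on are log2 fold changes, of HGFAC-KO over control or of HF/HS over chow, and their adjusted p come from edgeR.

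**Figure D2:**
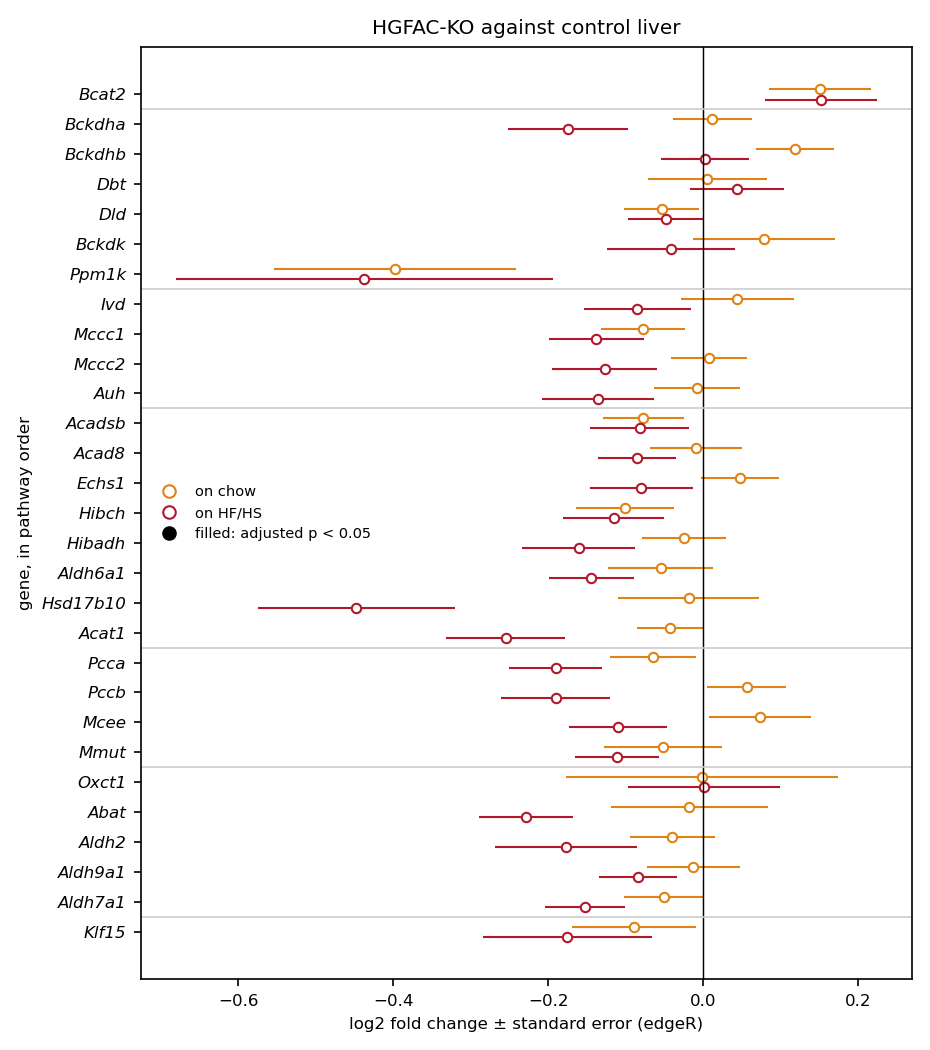
Fitted log2 fold change of each member in HGFAC-KO against control liver on chow (orange) and on HF/HS (red), with standard errors as bars, in pathway order. No point is filled, since no member had an adjusted p under 0.05; on HF/HS all members from *Ivd* to *Aldh7a1* except *Oxct1* lie left of 0.

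*Abat* (chromosome 16, 8513429 to 8621568 in GRCm38), which takes the amino group from GABA and from a valine breakdown product, had the smallest p on HF/HS. It ran from 476 to 543 CPM (median 489) in controls and 389 to 487 CPM (median 418) in HGFAC-KO mice. All 7 HGFAC-KO mice were below the median of the controls and 6 were below every control, while the highest overlapped them. Its fitted log2 value of -0.23 (standard error 0.06, adjusted p = 0.339) missed the threshold, and a two-sided exact permutation test over mice gave p = 0.00233 with no adjustment, the smallest that 7 against 7 mice allow being 0.000583.

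For *Hsd17b10* (chromosome X, 152001845 to 152004442), which encodes a mitochondrial dehydrogenase that also serves in mitochondrial RNA processing, the spread among HGFAC-KO mice was wide. Controls on HF/HS ran from 137 to 197 CPM (median 162) and HGFAC-KO mice from 96.5 to 187 CPM (median 109). Of the HGFAC-KO mice, 6 lay below all controls and replicate 5, at 187 CPM, lay above 6 of the 7 controls. The fitted value was -0.45 (standard error 0.13, adjusted p = 0.368), and without replicate 5 it was -0.58 with an adjusted p of 0.0169 in edgeR's quasi-likelihood test. Whether this gene was called thus turned on that mouse.

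*Acat1* (chromosome 9, 53580522 to 53610382), which splits acetoacetyl-CoA and 2-methylacetoacetyl-CoA, ran from 422 to 546 CPM (median 492) in controls and 328 to 479 CPM (median 409) in the knockouts on HF/HS, all 7 of which were below the median of the controls. Its fitted value was -0.25 (standard error 0.08, adjusted p = 0.396), and the exact permutation p was 0.00758. *Pcca* followed, at 67.5 ± 1.42 against 59.3 ± 6.47 CPM, with -0.19 (standard error 0.06, adjusted p = 0.411), and 6 of 7 HGFAC-KO mice below all controls while replicate 5, at 69.5 CPM, was above all of them. *Aldh7a1*, which oxidizes the lysine-derived semialdehyde, was at 427 ± 18.9 against 385 ± 26.8 CPM (SD, 7 mice in each group), with -0.15 (standard error 0.05, adjusted p = 0.439) and again 6 of 7 mice below all controls. The other members with an unadjusted p under 0.05 that were lower were *Pccb*, *Aldh6a1*, *Mccc1*, *Bckdha* and *Hibadh*, with log2 fold changes from -0.19 to -0.14.

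At the control points of the pathway on HF/HS, the values did not go one way. *Bcat2* had a mean of 42.3 ± 3.31 CPM in controls against 47.2 ± 5.25 CPM in the knockouts, with 0.15 (standard error 0.07, adjusted p = 0.518), the only member with an unadjusted p under 0.05 that was higher. *Bckdha* had a fitted log2 value of -0.17 (standard error 0.08, adjusted p = 0.492) while its partner *Bckdhb* had 0.00, and the kinase *Bckdk* had -0.04 (standard error 0.08, adjusted p = 0.910). The phosphatase *Ppm1k* ran from 28.5 to 72.7 CPM (median 52.7) in controls and 20.8 to 58.3 CPM (median 36.1) in HGFAC-KO mice, with -0.44 (standard error 0.24, adjusted p = 0.586), and the groups overlapped over most of their range. *Klf15*, a glucocorticoid-responsive factor known to raise amino acid catabolic genes, had -0.18 (standard error 0.11, adjusted p = 0.63).

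Of all genes tested on HF/HS, 0.0812% had groups that did not overlap, and no member did. Without replicate 5 of the HGFAC-KO mice, 20 of 21 genes after the complex were still negative, their median was -0.16, 15 had an unadjusted p under 0.05 (14.5% of all genes) and *Hsd17b10* alone of the members was called, where 0.0809% of all genes were. Up to the complex 5 of 7 were then negative, with a median of -0.04 and 2, *Bckdha* and *Ppm1k*, at an unadjusted p under 0.05. The mean log2 level of the 21 genes, relative to controls on chow, lay between -0.04 and 0.03 in controls on HF/HS and between -0.28 and 0.04 in HGFAC-KO mice, with replicate 5 highest. The same mean over the 7 genes up to the complex lay between -0.15 and 0.19 in controls and between -0.25 and 0.15 in the knockouts. These means describe the mice and carry no test.

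**Figure D3:**
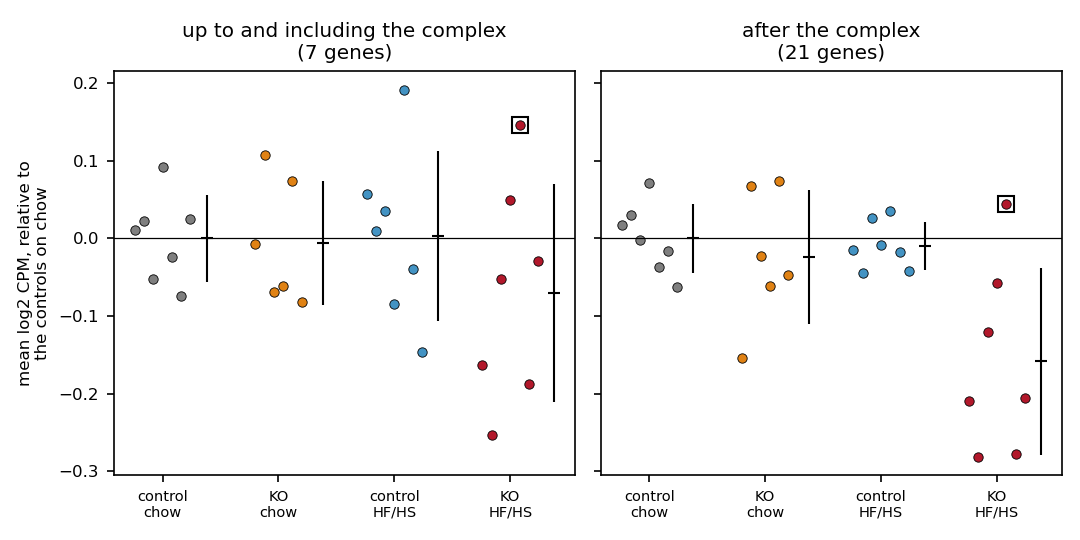
Mean log2 CPM per mouse over the 7 measured genes up to and including the complex (left) and the 21 genes after it (right), relative to the mean of the controls on chow, in the 4 groups, with the group mean ± SD beside the points and a square around HGFAC-KO replicate 5 on HF/HS. On the right, 6 of 7 HGFAC-KO mice on HF/HS lie below every control on HF/HS and replicate 5 lies at 0.04, while on the left the groups overlap.

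On chow, the genotypes differed little in this pathway. None of the 29 tested members was called in edgeR's quasi-likelihood test, where 0.00737% of 13571 genes were, DESeq2 and limma voom also called 0, and 3 members had an unadjusted p under 0.05 where 5.98% of all genes did. No member had groups that did not overlap, against 0.125% of all genes. After the complex, 16 of 21 members were negative, against 48.8% of all genes, with a median of -0.02. Without HGFAC-KO replicate 1 it was 10 of 21 with a median of 0.02, and without replicate 2 it stayed at 16 of 21 with a median of -0.04. Up to the complex 2 of 7 were negative, with a median of 0.01, and without replicate 2 it was 4 of 7 with a median of 0.00. Markers of Kupffer cells were lower in 7 of 7 cases on chow (median -0.29) and those of endothelial cells in 6 of 7 (median -0.21), with 0 called (edgeR), summed levels of 104 to 235 against 105 to 158 CPM and of 211 to 305 against 193 to 260.1 CPM in controls and knockouts, and their part was not tested.

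The 3 members with an unadjusted p under 0.05 on chow all act up to the complex. *Ppm1k* ran from 30.9 to 67.0 CPM (median 43.1) in controls and 28.3 to 44.4 CPM (median 33.6) in the knockouts, with a fitted value of -0.40 (standard error 0.16, adjusted p = 0.801), and 5 of the 6 knockouts lay under the control median. *Bckdhb* ran from 43.2 to 49.9 CPM (median 45.8) and 44.9 to 54.1 CPM (median 49.6), and *Bcat2* from 41.3 to 52.1 CPM (median 44.6) and 47.1 to 58.5 CPM (median 50.9) in controls and knockouts. Both were higher in HGFAC-KO mice, with fitted values of 0.12 (standard error 0.05, adjusted p = 0.801) and 0.15 (standard error 0.07, adjusted p = 0.801), and all 6 HGFAC-KO mice exceeded the control median for *Bcat2*. Exact permutation tests over mice, two-sided, gave p = 0.0548 for *Ppm1k*, 0.0227 for *Bckdhb* and 0.0431 for *Bcat2*, with no adjustment. The next smallest p belonged to *Hibch*, with -0.10 (standard error 0.06, adjusted p = 0.822), and *Acadsb*, with -0.08 (standard error 0.05, adjusted p = 0.823). Without HGFAC-KO replicate 1, the lowest of its group for *Hibch*, the value for that gene was -0.05. *Bckdha* (0.01, standard error 0.05, adjusted p = 0.966), *Bckdk* (0.08, standard error 0.09, adjusted p = 0.868) and *Klf15* (-0.09, standard error 0.08, adjusted p = 0.845) were within about 1 standard error of 0.

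Because the kinase and the phosphatase act against each other, the ratio of *Bckdk* to *Ppm1k* counts was formed in each mouse, with no division by length, so that only its differences between mice can be read. It was 0.357 ± 0.129 in controls (SD, n = 7) and 0.466 ± 0.0462 in HGFAC-KO mice (SD, n = 6) on chow, and 0.356 ± 0.126 and 0.477 ± 0.154 on HF/HS (SD, n = 7 in each). The ranges overlapped on both diets, from 0.196 to 0.602 against 0.406 to 0.522 on chow and from 0.238 to 0.623 against 0.30 to 0.755 on HF/HS. *Bckdk* itself was at 14.9 ± 2.26 and 15.8 ± 1.40 CPM on chow and 15.9 ± 1.88 and 15.5 ± 1.5 CPM on HF/HS.

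The HF/HS diet changed few members in controls. At an adjusted p under 0.05 (edgeR), 2 of 29 were called, 1 higher and 1 lower, where 10.5% of 13525 genes were, 4.93% higher and 5.6% lower. *Acat1* rose from 380.2 to 416 CPM (median 393) on chow to 422 to 546 CPM (median 492) on HF/HS, and every mouse on HF/HS exceeded every mouse on chow. Its fitted log2 value of 0.31 (standard error 0.05, adjusted p = 0.00188) passed the edgeR threshold, and the exact permutation p was 0.000583, the smallest possible. *Aldh7a1* fell from 467 to 549 CPM (median 499.6) to 407 to 462 CPM (median 423), again with no overlap, by 0.23 on the log2 scale (standard error 0.05, adjusted p = 0.00466 from edgeR). Groups that did not overlap were seen in these 2 members and in 3.56% of all genes.

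In the rest of the pathway, the controls' values on the 2 diets lay close together. *Aldh9a1*, which oxidizes aminobutyraldehyde, was next with 284 to 311 CPM (median 301) on chow and 304 to 337 CPM (median 321) on HF/HS, 0.10 (standard error 0.04, adjusted p = 0.133), and DESeq2 called it with an adjusted p of 0.0284. *Ivd* ran from 147 to 194 CPM (median 159) on chow and 139.8 to 159.7 CPM (median 151) on HF/HS, and *Acadsb* from 116 to 134 CPM (median 125) and 102 to 130.1 CPM (median 114), with fitted values of -0.12 (standard error 0.06, adjusted p = 0.218) and -0.11 (standard error 0.06, adjusted p = 0.222). Neither passed, and the ranges overlapped. The fitted values were -0.13 (standard error 0.06, adjusted p = 0.225) for *Bcat2*, 0.04 (standard error 0.06, adjusted p = 0.704) for *Bckdha*, 0.09 (standard error 0.10, adjusted p = 0.606) for *Bckdk*, 0.10 (standard error 0.20, adjusted p = 0.80) for *Ppm1k* and -0.11 (standard error 0.08, adjusted p = 0.432) for *Klf15*. After the complex 11 of 21 members were lower on HF/HS, and 16 of all 29, against 48.9% of all genes, with medians of -0.04 and 0.00. Markers higher on HF/HS in controls were 6 of 7 for Kupffer cells (0 called), 5 of 7 for other leukocytes (1 called) and 5 of 7 for endothelial cells (0 called). For stellate cells they were 6 of 7 (1 other called lower) and for cholangiocytes 1 of 6 (0 called), where 10.5% of all genes were called (edgeR). Medians ran from 0.13 to 0.26, with -0.14 for cholangiocytes, and the part of these cells was not tested.

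**Figure D4:**
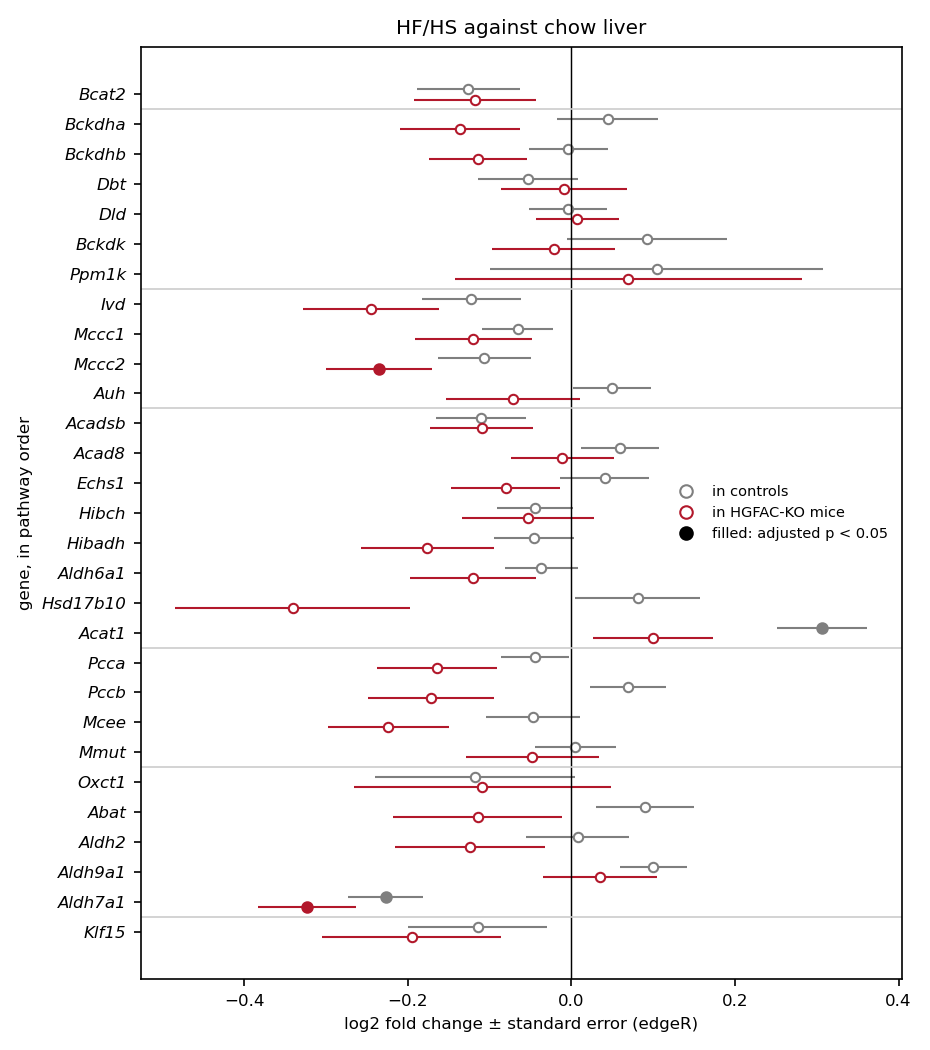
Fitted log2 fold change of each member on HF/HS against chow in controls (grey) and in HGFAC-KO mice (red), with standard errors as bars, in pathway order. Filled points have an adjusted p under 0.05: *Acat1* and *Aldh7a1* in controls, *Mccc2* and *Aldh7a1* in HGFAC-KO mice.

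In HGFAC-KO mice, most members had lower fitted levels on HF/HS than on chow, and few passed the test. Called members were 2 of 29, both lower, where 5.89% of 13613 genes were called, 3.17% higher and 2.73% lower. *Aldh7a1* fell from 453 to 534 CPM (median 469.7) to 354 to 434 CPM (median 376), with no overlap, by 0.32 on the log2 scale (standard error 0.06, adjusted p = 0.00524 from edgeR, exact permutation p = 0.00117). It was the only member whose groups did not overlap, as 3.03% of all genes did not. *Mccc2* (chromosome 13, 99948530 to 100015639), the smaller subunit of methylcrotonyl-CoA carboxylase in the leucine branch, fell from 58.8 to 69.3 CPM (median 61.2) to 47.7 to 59.7 CPM (median 51.0), and 6 of 7 mice on HF/HS were below all on chow. Its fitted value of -0.24 (log2 scale, standard error 0.06, adjusted p = 0.0433, edgeR) lost the call when any 1 of 8 mice was left out, HGFAC-KO replicates 2, 3, 4 or 5 on chow or 1, 2, 6 or 7 on HF/HS, with adjusted p from 0.0501 to 0.103 among these. It was also lost with no filter on low counts (adjusted p = 0.0564) and with a replicate block (adjusted p = 0.0843). In controls *Mccc2* ran from 58.9 to 66.8 CPM (median 60.7) on chow and 52.5 to 66.1 CPM (median 56.8) on HF/HS. There its fitted value was -0.11 (standard error 0.06, adjusted p = 0.255, edgeR), and 5 of 7 controls on HF/HS were below all on chow. The interaction of genotype and diet for *Mccc2* was -0.13 (standard error 0.09, adjusted p = 0.984, edgeR) and was not called.

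Counted by direction, 25 of 29 members were lower on HF/HS in HGFAC-KO mice, against 49.2% of all genes, with a median of -0.11. Among the 21 after the complex 19 were lower, with a median of -0.12, and 8 had an unadjusted p under 0.05, all lower, where 22.4% of all genes did so. Up to the complex 5 of 7 were lower, with a median of -0.02. The gap between these medians was smaller without HGFAC-KO replicate 5 on HF/HS, when 6 of 7 were lower up to the complex with a median of -0.09, and 19 of 21 after it with a median of -0.15, and 2 and 11 had an unadjusted p under 0.05, where 23.3% of all genes did. Without HGFAC-KO replicate 2 on chow, 3 of 7 were lower up to the complex with a median of 0.00, and 18 of 21 after it with a median of -0.11. Without replicate 1 on chow, it was 6 of 7 with a median of -0.04, and 20 of 21 with a median of -0.16. *Mcee* ran from 30.0 to 38.9 CPM (median 32.8) on chow and 25.0 to 33.3 CPM (median 28.8) on HF/HS, and *Ivd* from 146 to 193 CPM (median 168) and 122 to 166 CPM (median 138). Their fitted values, -0.22 (standard error 0.07, adjusted p = 0.0862) and -0.24 (standard error 0.08, adjusted p = 0.0930), did not pass, and the ranges overlapped. *Hsd17b10* ran from 114 to 176 CPM (median 163) and 96.5 to 187 CPM (median 109), with -0.34 (standard error 0.14, adjusted p = 0.173). Without replicate 5 on HF/HS these 3 passed as well, with adjusted p of 0.0393, 0.0416 and 0.0115 (edgeR), and 5 of 29 members were called, where 7.01% of all genes were called in the same fit. In all HGFAC-KO mice, replicate 5 included, 4 of 7 markers of Kupffer cells and macrophages were called higher on HF/HS (edgeR), where 5.89% of all genes were called. Their summed level ran from 105 to 158 CPM on chow and from 135 to 232 CPM on HF/HS, with no marker at 0 in every mouse. Of 7 markers each, other leukocytes had 7 higher (1 called), endothelial cells 5 higher (1 called) and stellate cells 5 higher (0 called, 2 at an unadjusted p under 0.05), with median log2 fold changes of 0.26, 0.24 and 0.53, while their summed levels overlapped between the diets. Most markers of these cells were higher on HF/HS in controls too. The part of these cells in the members' values was not tested.

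*Acat1* did not pass in HGFAC-KO mice, with 383 ± 18.2 CPM on chow and 408 ± 47.3 CPM on HF/HS and 0.10 (standard error 0.07, adjusted p = 0.455). The control points had -0.12 (standard error 0.07, adjusted p = 0.376) for *Bcat2*, -0.14 (standard error 0.07, adjusted p = 0.293) for *Bckdha*, -0.02 (standard error 0.08, adjusted p = 0.899) for *Bckdk*, 0.07 (standard error 0.21, adjusted p = 0.882) for *Ppm1k* and -0.20 (standard error 0.11, adjusted p = 0.315) for *Klf15*.

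**Figure D5:**
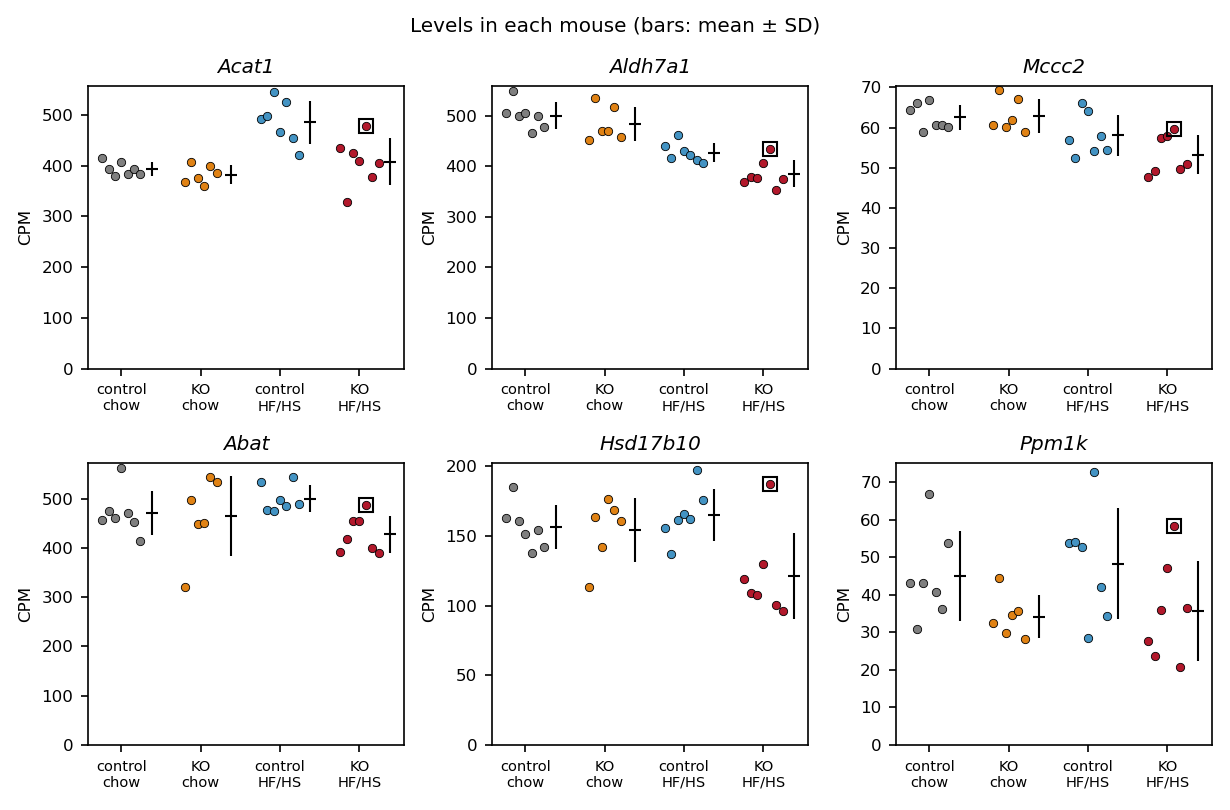
Levels of 6 members in every mouse, in CPM on axes that start at 0, in the 4 groups (points are mice, bars beside them are mean ± SD, and a square marks HGFAC-KO replicate 5 on HF/HS). *Acat1* is higher in all controls on HF/HS than in all controls on chow, *Aldh7a1* is lower on HF/HS in both genotypes, and for *Hsd17b10* the marked mouse at 187 CPM lies above the other HGFAC-KO mice on HF/HS.

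Whether the genotype effect itself differed between the diets was tested with the interaction of genotype and diet over all 27 mice. In edgeR's quasi-likelihood test 0 of 29 members and 0% of 13932 genes were called, and DESeq2 and limma voom also called 0 members. An unadjusted p under 0.05 was found for 3 members and 3.63% of all genes. These were *Pccb* (-0.24, standard error 0.09, adjusted p = 0.984), *Hsd17b10* (-0.42, standard error 0.17, adjusted p = 0.984) and *Acat1* (-0.21, standard error 0.09, adjusted p = 0.984), for each of which the difference of HGFAC-KO from control was more negative on HF/HS than on chow. *Mcee* (-0.18, standard error 0.09, adjusted p = 0.984) and *Bckdha* (-0.18, standard error 0.10, adjusted p = 0.984) came next, and *Bcat2* (0.01, standard error 0.10, adjusted p = 0.998), *Bckdk* (-0.12, standard error 0.13, adjusted p = 0.984), *Ppm1k* (-0.04, standard error 0.31, adjusted p = 0.996) and *Klf15* (-0.08, standard error 0.14, adjusted p = 0.984) showed no difference beyond their error. After the complex 20 of 21 members had a value below 0, with a median of -0.12, against 48.7% of all genes, and without replicate 5 it was again 20 of 21, with a median of -0.16 and 9 at an unadjusted p under 0.05 where 6.81% of all genes were. The interaction contains the genotype values on HF/HS, so this count is not separate from the one given for that diet. Up to the complex 4 of 7 were below 0, with a median of -0.04, and without replicate 5 it was again 4 of 7, but with a median of -0.15 and 2, *Bckdha* and *Bckdhb*, at an unadjusted p under 0.05. The median up to the complex lay between -0.15 and 0.01 over all mice left out in turn, and that after it between -0.16 and -0.09. In the same interaction, markers of Kupffer cells were above 0 in 7 of 7 cases (median 0.39), of stellate cells in 6 of 7 (0.22) and of other leukocytes in 5 of 7 (0.19). Those of endothelial cells were above 0 in 4 of 7 (0.02) and of cholangiocytes in 3 of 6 (-0.02). Of these markers 0 were called (edgeR), and the part of these cells was not tested.

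*Pccb*, the smaller subunit of propionyl-CoA carboxylase, had the smallest p of the members in this interaction test. It was 177 ± 9.93 CPM in controls against 184 ± 10.8 CPM in the knockouts on chow (SD, 7 and 6 mice), and 186 ± 8.90 against 163 ± 20.7 CPM on HF/HS (SD, 7 mice in each). On chow 5 of 6 HGFAC-KO mice were above the control median, and on HF/HS 6 of 7 were below it. The genotype values were 0.06 on chow and -0.19 on HF/HS, with adjusted p of 0.845 and 0.448 (edgeR). Most genes after the complex did not share the positive value on chow, where 16 of 21 were negative, among them *Hsd17b10* (-0.02) and *Acat1* (-0.04).

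Further genes of the pathway, from lists that are not members, were described in the same way. Of 20 other enzymes drawn in branched-chain amino acid degradation, most of them shared with fatty acid oxidation, 18 were lower in HGFAC-KO mice on HF/HS (median -0.14) and 15 on chow (median -0.04), and 0 were called on either diet (edgeR), with 9 and 4 at an unadjusted p under 0.05, against 9.64% and 5.98% of all genes. On HF/HS the smallest p belonged to *Acaa1a*, a peroxisomal thiolase, with -0.26 (standard error 0.07, adjusted p = 0.339), and *Aldh3a2*, fatty aldehyde dehydrogenase, with -0.61 (standard error 0.16, adjusted p = 0.341). On chow they belonged to *Ehhadh*, the peroxisomal bifunctional enzyme, with -0.40 (standard error 0.09, adjusted p = 0.801), and *Acaa1b* with -0.32 (standard error 0.09, adjusted p = 0.801). The diet raised 6 and lowered 2 of the 20 in controls, where 10.5% of all genes were called, led by *Acaa1b* at 0.52 (standard error 0.09, adjusted p = 0.00152) and *Acat2*, the cytosolic thiolase, at -0.43 (standard error 0.08, adjusted p = 0.00257), and raised 1 and lowered 2 in HGFAC-KO mice, where 5.89% of all genes were called, again led by *Acaa1b* (0.51, standard error 0.11, adjusted p = 0.0115) and *Acat2* (-0.46, standard error 0.10, adjusted p = 0.0171).

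The carriers of branched-chain amino acids, 6 genes, had 0 genotype calls, where 0.00737% of all genes were called on chow and 0.0148% on HF/HS. For the diet 1 of the 6 was called higher and 2 lower in controls, where 10.5% of all genes were called. In HGFAC-KO mice 1 was called higher and 0 lower, where 5.89% of all genes were called. The diet raised *Slc7a8*, a light chain of the L-type transporter, in both genotypes, with 0.56 (standard error 0.13, adjusted p = 0.00945) in controls and 0.69 (standard error 0.13, adjusted p = 0.00462) in HGFAC-KO mice, and lowered *Slc3a2*, the shared heavy chain, at -0.20 (standard error 0.05, adjusted p = 0.00966), and *Slc43a1* in controls. Of 8 genes that supply biotin and cobalamin to the carboxylases and the mutase, 0 were called in any comparison (edgeR), where from 0% (interaction) to 10.5% (diet in controls) of all genes were. The smallest p were those of *Mmab* for the diet, with -0.51 (standard error 0.16, adjusted p = 0.0606) in controls and -0.67 (standard error 0.23, adjusted p = 0.103) in HGFAC-KO mice, and of *Hlcs*, which attaches biotin, with 0.34 (standard error 0.14, adjusted p = 0.467) for the genotype on HF/HS. Among 9 subunits of complexes that share *Dld* or its chemistry, *Pdha1*, of pyruvate dehydrogenase, had the smallest genotype p on HF/HS with -0.18 (standard error 0.05, adjusted p = 0.341). The diet lowered only *Gldc* among them in controls, at -0.23 (standard error 0.07, adjusted p = 0.0339), where 10.5% of all genes were called.

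For transcription factors tied to this pathway, targets of ChREBP (12 genes) and of PPARA (10 genes) were counted. No gene of either list was called for genotype on either diet (edgeR), and 4 of 12 ChREBP targets and 8 of 10 PPARA targets were lower in HGFAC-KO mice on HF/HS, with 1 and 5 at an unadjusted p under 0.05, against 50.5% of all genes lower and 9.64% at that p. On chow 7 of 12 and 8 of 10 were lower, with medians of -0.03 and -0.15 and with 1 and 3 at an unadjusted p under 0.05, against 48.8% of all genes lower and 5.98% at that p. Among the smallest p on HF/HS were those of *Gpd1* (-0.29, standard error 0.09, adjusted p = 0.411) and *Slc2a2* (-0.24, standard error 0.12, adjusted p = 0.529) for ChREBP targets and *Cyp4a10* (-0.31, standard error 0.08, adjusted p = 0.339) for PPARA targets. In controls, where the diet changed 10.5% of all genes, it raised 4 and lowered 1 of the ChREBP targets, led by the glucose transporter *Slc2a2* at 0.74 (standard error 0.10, adjusted p = 3.19e-04) and *Pklr* at 0.73 (standard error 0.12, adjusted p = 0.00127), and raised 3 and lowered 1 of the PPARA targets, among them *Cpt1a* at 0.41 (standard error 0.06, adjusted p = 7.02e-04). In HGFAC-KO mice, where 5.89% of all genes were called, 1 gene of each list was, *Txnip* at 0.39 (standard error 0.10, adjusted p = 0.0347) and *Pdk4* at -0.98 (standard error 0.24, adjusted p = 0.0272).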

How the data were processed

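Liver RNA from 27 mice was sequenced with 50-base reads. The authors aligned reads with HISAT2 2.1.0 to the mouse genome (mm10) and counted them per gene with featureCounts 1.6.3, and the deposited values are raw whole-number counts. The annotation and strand setting of the counting are not given in the sources used here. Of the 27179 features, 3886 carried no gene name (4.13 to 12.1% of counts) and were left out, and features of 1 symbol were summed, which gave 23191 symbols. Totals of 36056177 to 57298657 counts per mouse limit the precision for low genes such as *Oxct1*. No library duplicated another.

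Groups were taken from the labels. Each comparison was fitted to all genes with edgeR 4.0.16 (R 4.3.3), using TMM scaling, filterByExpr (minimum count 10, minimum total 15) and the robust quasi-likelihood test, with Benjamini-Hochberg adjustment over all genes and a threshold of 0.05. Single members were also compared by two-sided exact permutation tests over mice on log2 CPM (prior count 2). Alternatives were DESeq2 1.42.0, limma voom 3.58.1, upper-quartile and relative log expression scaling, no filter, at least 10 counts in every library, a replicate block, all 27 mice in one fit and leaving out each mouse. The edgeR scripts were tested on simulated data of the chow comparison, where recovery was required only for changes larger than those of the members here. Named in each comparison were members past the threshold, the 5 members with the smallest p, the control points *Bcat2*, *Bckdha*, *Bckdk*, *Ppm1k* and *Klf15*, and of each other list the 2 genes with the smallest p, except for 1 gene that is not reported here. A few others, such as *Bckdhb* on HF/HS, were named beside these by role. Nothing states that the mice came from separate litters or cages, so p-values measure the spread between these mice. The members and lists were chosen with earlier results of these data known, in which this pathway was already seen to be lower in HGFAC-KO mice on HF/HS, so its direction there is not independent evidence. The interaction and the diet comparison in HGFAC-KO mice use the same knockouts on HF/HS. Their counts by direction are therefore not independent evidence either.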

Additional observations from a re-analysis of the deposited data

Results flagged for a closer look

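In 9 of 116 combinations of member and group, 1 mouse lay far from the others by Dixon's criterion, where chance gives about 1 in 20, or 5.8. Control replicate 4 on chow was the highest of its group for *Abat* at 561 CPM (others 415 to 475), *Aldh6a1* at 409 CPM (others 373 to 387), *Dbt* at 93.3 CPM (others 67.9 to 78.7) and *Mccc1* at 56.1 CPM (others 46.7 to 50.1). HGFAC-KO replicate 5 on HF/HS was the highest of its group for *Bckdha* at 238 CPM (others 169 to 198), *Bckdhb* at 53.7 CPM (others 41.6 to 46.1) and *Hsd17b10* at 187 CPM (others 96.5 to 130.1). *Dbt* was lowest in control replicate 3 on HF/HS at 66.4 CPM (others 73.4 to 78.2), and *Hibch* was lowest in HGFAC-KO replicate 1 on chow at 47.2 CPM (others 59.9 to 64.3).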

How the results depend on the processing

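The number of members called for genotype on HF/HS was 0 in edgeR, 1 with DESeq2 (*Abat*) and 0 to 1 when single mice were left out. For the diet in HGFAC-KO mice it was 2, against 1 with no filter, 1 with the replicate block, 4 with all 27 mice in one fit, and 1 to 5 when single mice were left out. Calls over all genes in that comparison ran from 602 to 1401 over the alternatives and from 467 to 950 with single mice left out. The number of members after the complex below 0 on chow was 16, and 10 to 16 with single mice left out. Small fitted values changed sign: *Ppm1k* for the diet in HGFAC-KO mice was -0.0133 with the replicate block, and *Bcat2* in the interaction was -0.0008257 with at least 10 counts in every library and -0.0755 with the replicate block. With single mice left out, *Bckdha* on chow ran from -0.005962 to 0.04289, *Bckdk* for genotype on HF/HS from -0.08808 to 0.003363, *Ppm1k* for the diet in controls from -0.02283 to 0.2279, *Bckdk* and *Ppm1k* for the diet in HGFAC-KO mice from -0.05699 to 0.01708 and from -0.09379 to 0.1666, and *Bcat2* and *Ppm1k* in the interaction from -0.02992 to 0.04929 and from -0.193 to 0.08183. The cause was not tested. Correlations between mice of the same number ran from -0.30 to 0.46 over the comparisons and were not above 0.1 for every pair in any of them, so the replicate block pairs mice by number alone. For the diet in HGFAC-KO mice, where the block ended the call of *Mccc2*, 5 of 6 pairs lay between 0.12 and 0.33 and 1 at -0.18, and 3 of 6 mice correlated best with their own number, a hint from the data and not from the design. Over all genes, calls for genotype were 1 on chow and 2 on HF/HS, against 13 and 55 with DESeq2, and on HF/HS 1 with all 27 mice in one fit, 5 without control replicate 7 and 11 without HGFAC-KO replicate 5. Calls for the diet were 1424 in controls, against 774 with the replicate block, and 802 in HGFAC-KO mice, against 1401 with DESeq2 and 467 without HGFAC-KO replicate 2 on chow. DESeq2 gave no adjusted p for some named members on chow, which were left out of its counts.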
